A study of Mus musculus with 4 samples.

Results

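The 10 genes described here belong to JAK-STAT signalling and its SOCS feedback and are 2 Janus kinase genes (*Jak1* and *Jak2*), 3 STAT genes (*Stat3*, *Stat5a* and *Stat5b*), 4 feedback inhibitor genes (*Cish*, *Socs1*, *Socs2* and *Socs3*) and *Pim1*, a STAT target that encodes a survival kinase. They were chosen by symbol, and all 10 were present among the 18598 genes listed and among the 14858 tested, those whose normalized counts averaged 10 or more. RNA came from LSK cells, the lineage-/SCA-1+/c-KIT+ bone marrow fraction that holds HSPCs, of C57BL/6 mice about 3 months old. Both groups were homozygous for the floxed *Bptf* allele and received polyinosinic-polycytidylic acid (pIpC), and only the *Bptf* cKO mice also carried *Mx1*-cre. Cells were sorted 10 days after cre induction, and each genotype had 2 libraries, each from 5 pooled mice. *Mx1*-cre is driven by an interferon-responsive promoter and is not restricted to LSK cells, pIpC induces interferon, which itself signals through JAK-STAT, and the littermates in the control libraries had the floxed allele without cre, so an effect of cre cannot be told apart from that of *Bptf* loss in these libraries.

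JAK-STAT signalling carries messages from cytokine receptors to the nucleus. A cytokine brings receptor chains together, the Janus kinases (JAK) bound to them become active, and signal transducer and activator of transcription (STAT) proteins are phosphorylated, dimerise and bind DNA. STAT proteins in turn switch on genes of the suppressor of cytokine signalling (SOCS) family, whose products bind the receptors or the kinases and damp the signal, so that SOCS transcripts are commonly read as a trace of recent signalling. In hematopoietic stem and progenitor cells (HSPCs), cytokine signals that pass through JAK2 and STAT5 help to maintain stem cells and drive the production of blood cells.

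The 4 libraries held between 14091054 and 30134742 reads on listed genes, with replicate 1 the deeper of each genotype. *Bptf*, which encodes the largest subunit of the nucleosome remodeling factor complex, had 5520 and 5850 normalized counts (read counts that the authors divided by a size factor per library) in *Bptf* f/f and 3398 and 3320 in *Bptf* cKO (adjusted p = 0.0439 by limma and 0.0531 by edgeR). The libraries also differed in the levels of marker genes, both within and between genotypes. In *Bptf* f/f and *Bptf* cKO, respectively, 6 pluripotency genes summed to 3.88 and 5.20 normalized counts in replicate 1 and to 922 and 1177 in replicate 2. The 7 granulocyte-monocyte markers summed to 11759 in *Bptf* f/f replicate 2 against 46327 to 58356 in the other libraries, but did not move together. *Ctsg* had 2652 and 674 in *Bptf* f/f and 10040 and 9445 in *Bptf* cKO, while the other 6 overlapped between genotypes. Among these, *S100a8* had 8367 and 776 in *Bptf* f/f and 2993 and 1182 in *Bptf* cKO. All 8 LSK markers were listed and summed to 54500 and 49066 in *Bptf* f/f and to 43622 and 42088 in *Bptf* cKO, 7 of them with a negative log2 fold change, with *Kit* at 13634 to 17051, and of 4 T cell markers only *Cd4* was listed. The part of these differences in the results was not tested. With 2 libraries per group, the smallest p of an exact permutation test on 1 gene is 0.333, and a lower level in bulk RNA cannot be told apart from fewer cells that hold the transcript. Each library is a separate pool of mice according to the labels, so p-values rest on the spread between such pools within a genotype. Without a replicate block this spread includes any difference that same-numbered libraries share. In limma it is also combined with the spread of other genes.

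STAT dimers bind DNA at a palindromic element whose core is TTCNNNGAA. This motif was searched in the promoter windows of the genes, 250 bases before to 50 after each RefSeq start on GRCm38.p6, since *Cish* and *Socs3* are known STAT targets and had the largest differences between genotypes with the same sign between both same-numbered pairs of libraries. A window was found for 9 of the genes and not for *Socs2*. The motif reads the same on both strands, and 8.30% of the 32851 windows in the RefSeq table held it. Among the 12 windows of the 9 genes it was found in those of *Cish* and *Socs3*, which are shown 5′ to 3′ on the coding strand with the motif in capitals.
Cish: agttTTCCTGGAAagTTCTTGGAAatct
Socs3: aaaccagccTTCTTAGAAgggaggggg
The *Cish* stretch lies at chr9:107296655-107296682 on the plus strand and holds the motif 2 times, at positions 1 and 12 counted from 1 at the RefSeq start, and 0.457% of all windows held 2 or more. In GENCODE vM21 these bases lie within the annotated gene, which starts further upstream. The *Socs3* stretch lies at chr11:117969503-117969529 on the minus strand, with its motif at positions -154 to -146 from the RefSeq start. It too lies within the span of the gene annotated in GENCODE vM21. A match is a description of letters, not a measured binding site, and the lack of a match says only that these letters are absent from the window.

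By level the genes formed a high and a low class. Per kilobase of annotated exon, the means over the 4 libraries ran from 1010 normalized counts for *Jak1*, 929 for *Pim1*, 744 for *Stat5b*, 531 for *Stat3* and 506 for *Jak2* to 477 for *Stat5a*. The inhibitors were far below, at 89.8 for *Cish*, 70.6 for *Socs3*, 63.6 for *Socs2* and 37.8 for *Socs1*. Neighbours in this order overlapped over the libraries except at 2 steps, from *Stat5b* to *Stat3* and from *Stat5a* to *Cish*. The lowest *Stat5a* library, with 435 normalized counts per kilobase, stood above the highest *Socs3* library, with 129, the highest value of any of the inhibitors. Exon length was the union over all annotated transcripts, so these levels depend on the annotation.

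**Figure D1:**
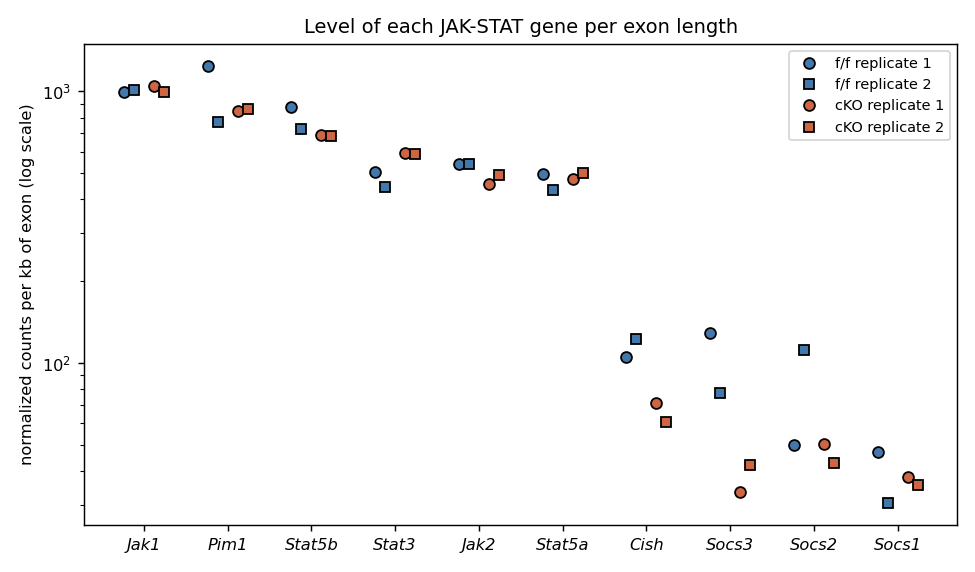
Normalized counts per kilobase of exon (vertical axis, log scale) of the 10 JAK-STAT genes, ordered by their mean, with 1 point for each library (circles replicate 1, squares replicate 2, blue *Bptf* f/f, red *Bptf* cKO). The kinase, STAT and *Pim1* points lie at 435 or above and the 4 inhibitor genes at 129 or below.

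The genotypes were compared with limma on log2(normalized count + 1) over all tested genes, with Benjamini-Hochberg adjustment, and fold changes are on that scale. By this test 0 of the 10 genes passed an adjusted p of 0.05 in either direction, where 0.740% of all tested genes did. At an unadjusted limma p under 0.05, *Stat3* was higher and *Cish* and *Socs3* were lower in *Bptf* cKO, where 15.7% of all tested genes stood at that level, 6.79% higher and 8.96% lower. When whole reads were tested by edgeR, 0 of the 10 were called, against 0.633% of all genes (0.330% higher and 0.303% lower). The DESeq2 Wald test on these reads called 2, *Cish* and *Socs3*, both lower, where it called 5.85% of all genes with an adjusted p, 3.57% lower and 2.28% higher. Both *Bptf* cKO libraries lay below both *Bptf* f/f libraries for 4 genes (*Jak2*, *Stat5b*, *Cish* and *Socs3*) and above them for 1 (*Stat3*), while 47.0% of all tested genes were separated, 23.8% downwards and 23.2% upwards. The median log2 fold change of the 10 genes was -0.19, against 0.0010 over all tested genes.

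**Figure D2:**
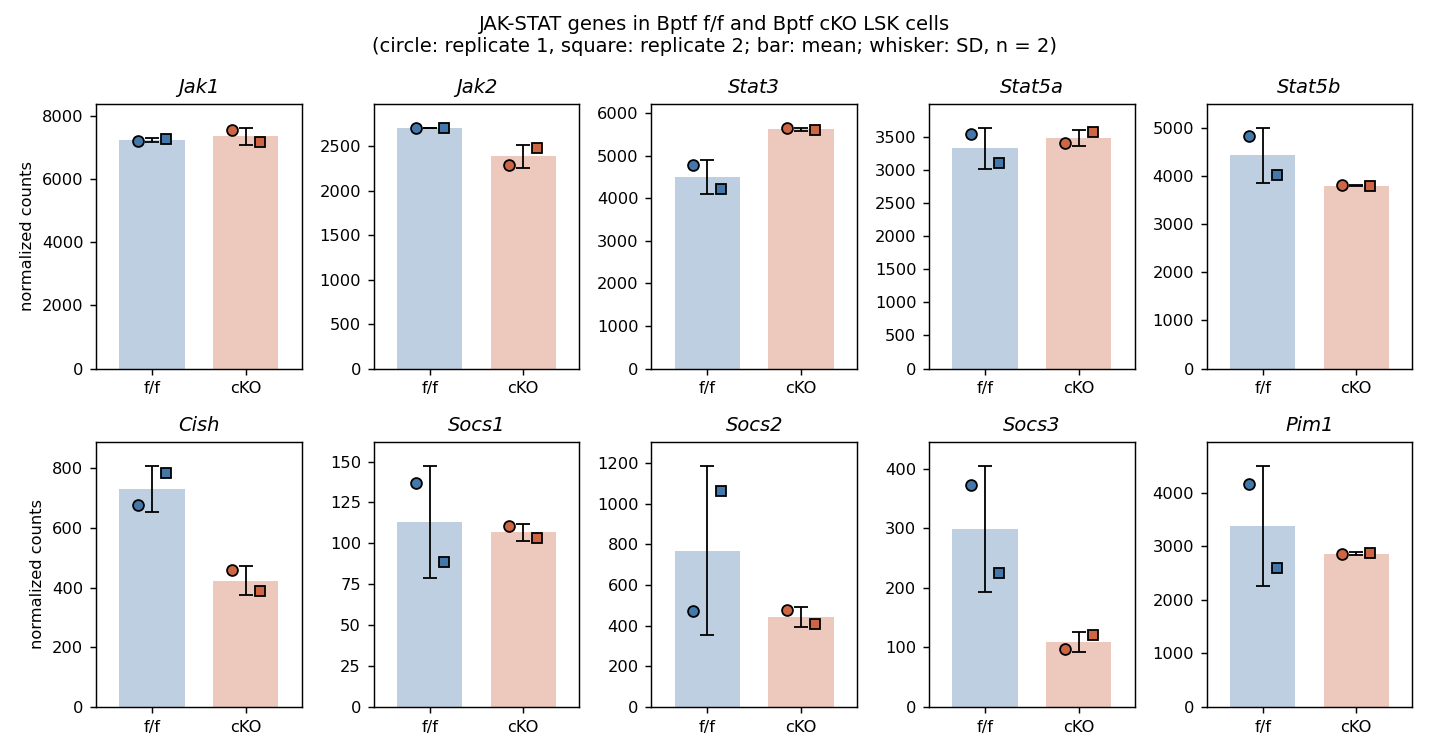
Normalized counts (vertical axes, each from 0) of the 10 JAK-STAT genes in *Bptf* f/f and *Bptf* cKO LSK cells, with a point for each library, bars for means and whiskers for the SD (n = 2). *Socs3* and *Cish* are lower in both *Bptf* cKO libraries, and the wide *Bptf* f/f spread of *Socs2* comes from replicate 2 at 1063.

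*Socs3* had the largest difference of the group. Its product binds JAK1, JAK2 and the gp130 receptor chain and limits signalling by interleukin-6 type cytokines and granulocyte colony-stimulating factor. The gene lies on chromosome 11 from 117966079 to 117970047 on the minus strand (GRCm38 and GENCODE vM21, as for all gene positions given here). Normalized counts of *Socs3* were 374 and 224.5 in *Bptf* f/f, replicate 1 first as throughout, and 96.8 and 121 in *Bptf* cKO. Both *Bptf* cKO libraries were thus well below the lower *Bptf* f/f library, although the *Bptf* f/f libraries themselves differed by a factor of 1.66. The mean went from 299 ± 105 (SD, n = 2) to 109 ± 17.3 (SD, n = 2), which is 36.5% of the *Bptf* f/f mean. On the log2 scale the fold change of *Socs3* was -1.41 (SE 0.31, 95% interval -2.19 to -0.63, adjusted p = 0.132 by limma), a rank at percentile 2.61 of all tested genes from the lowest up. DESeq2 gave *Socs3* an adjusted p of 0.00397 and edgeR 0.140. Between the libraries numbered 1 the log2 difference was -1.94 and between those numbered 2 it was -0.88, and the smallest *Socs3* read number was 86.

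Immediate-early genes, which respond within minutes to growth factors and to handling of cells, also had lower sums in *Bptf* cKO. Of 13 such genes tested, 1 (*Zfp36*) was called lower by limma and 12 had a negative log2 fold change. edgeR called 1 and DESeq2 8, all lower. Of all genes, limma called 0.370% lower, edgeR 0.303% and DESeq2 3.57%. The list summed to 80007 and 182629 normalized counts in *Bptf* f/f and to 28166 and 32136 in *Bptf* cKO. The order within *Bptf* f/f was the reverse of that of *Socs3*, which was higher in replicate 1. The part of these genes in the *Socs3* difference was not tested.

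*Cish* encodes CIS, the founding member of the SOCS family, which is induced by STAT5 and binds activated cytokine receptors. It lies on chromosome 9 from 107296026 to 107302784 on the plus strand and overlaps an antisense gene and a pseudogene on the other strand, whose reads cannot be told apart unless strand was used in counting. *Cish* had 675 and 784 normalized counts in *Bptf* f/f and 458 and 388 in *Bptf* cKO. The replicates of each genotype were close, and the genotypes did not overlap. The means were 730 ± 77.3 in *Bptf* f/f and 423 ± 49.2 in *Bptf* cKO (SD, n = 2), the latter 57.9% of the former. This gave a log2 fold change of -0.79 (SE 0.16, 95% interval -1.19 to -0.39, adjusted p = 0.113 by limma), with -0.56 and -1.01 between same-numbered libraries. DESeq2 gave *Cish* an adjusted p of 0.00831 and edgeR 0.127. At least 275 reads stood behind each *Cish* value.

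*Socs2* encodes the inhibitor best known for its restraint of growth hormone signalling and, in HSPCs, a target of STAT5. It lies on chromosome 10 from 95385362 to 95417180 on the minus strand. Its normalized counts were 474 and 1063 in *Bptf* f/f, against 478 and 408 in *Bptf* cKO. Only *Bptf* f/f replicate 2 stood apart, and the other 3 libraries lay between 408 and 478. For *Socs2* the log2 fold change was -0.69 (SE 0.38, 95% interval -1.66 to 0.29, adjusted p = 0.468 by limma), with 0.010 between the libraries numbered 1 and -1.38 between those numbered 2. Without *Bptf* f/f replicate 2 the *Socs2* log2 fold change was -0.10. The 8 LSK markers were not uniformly higher in that library. *Slamf1*, *Procr*, *Mecom* and *Hlf* were at their highest there, with 554, 1289, 2911 and 8795 normalized counts against at most 315.5, 749.5, 1661 and 6952 elsewhere. In contrast, *Kit* was at its lowest there with 13634, and *Flt3* and *Cd34* were below *Bptf* f/f replicate 1 (5832 against 9391 and 14681 against 17892). *Ly6a* was highest in *Bptf* cKO replicate 2 (1743 against 1369). The part of these markers, picked after their values were seen, in the *Socs2* level was not tested.

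*Socs1*, whose product binds JAK kinases directly and ends interferon signalling, had the lowest level per kilobase of exon. It lies on chromosome 16 from 10782240 to 10785536 on the minus strand. Its levels were 137 and 88.7 normalized counts in *Bptf* f/f and 110 and 103 in *Bptf* cKO, so both *Bptf* cKO libraries lay between the *Bptf* f/f libraries. The log2 fold change of *Socs1* was -0.048 (SE 0.30, 95% interval -0.80 to 0.71, adjusted p = 0.964 by limma), and the interval leaves room for a change of more than 1.5 times in either direction. *Socs1* had as few as 64 reads in a library. Its sign turned positive with the libraries recentred on their medians (0.0033) and with quantile normalization (0.11). Of 20 interferon-stimulated genes, 0 passed an adjusted p of 0.05 in limma or edgeR, 2 did in DESeq2 (3.57% of all genes were lower there) and 8 had an unadjusted limma p under 0.05 (8.96% of all genes were lower at that level), all lower. Of these 20 genes 16 had a negative log2 fold change and 12 had both *Bptf* cKO libraries below both *Bptf* f/f libraries, against 23.8% of all tested genes, while their sum was 20091 and 22889 normalized counts in *Bptf* f/f and 16847 and 23866 in *Bptf* cKO.

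Summed over *Cish*, *Socs1*, *Socs2* and *Socs3*, the feedback inhibitor transcripts came to 1660 and 2161 normalized counts in *Bptf* f/f and 1143 and 1020 in *Bptf* cKO. The genes that set the *Bptf* f/f sums differed between its libraries, since *Socs3* was higher in replicate 1 and *Socs2* in replicate 2. The 5 kinase and STAT genes together came to 23085 and 21335 normalized counts in *Bptf* f/f and to 22704 and 22619 in *Bptf* cKO, where the genotypes overlapped.

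**Figure D3:**
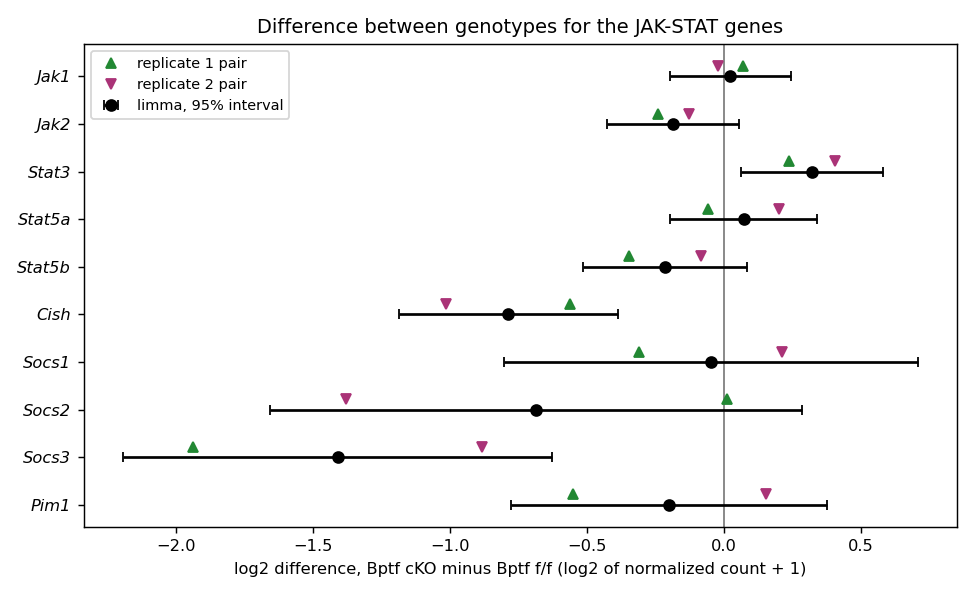
Log2 difference between *Bptf* cKO and *Bptf* f/f (horizontal axis, log2 of normalized count plus 1) of the 10 JAK-STAT genes, with limma estimates and 95% intervals (black) and the differences between the libraries numbered 1 (green, up) and those numbered 2 (purple, down). The intervals of *Stat3*, *Cish* and *Socs3* do not cross 0, and the same-numbered differences of *Socs2* lie at 0.010 and -1.38.

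*Jak1* and *Jak2*, the kinases through which most hematopoietic cytokine receptors signal, differed little between genotypes. *Jak1* binds receptors of the gp130, interferon and interleukin-2 families and lies on chromosome 4 from 101152367 to 101265282 on the minus strand, overlapping *Raver2* on the other strand. It had 7202 and 7279 normalized counts in *Bptf* f/f and 7553 and 7175 in *Bptf* cKO. The *Jak1* libraries of both genotypes overlapped, with a log2 fold change of 0.024 (SE 0.088, 95% interval -0.20 to 0.25, adjusted p = 0.938 by limma), and its sign turned with quantile normalization (-0.056).

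*Jak2* serves the erythropoietin receptor and the common beta receptor of interleukin-3, and lies on chromosome 19 from 29251828 to 29313080 on the plus strand. Both *Bptf* f/f libraries had 2708 normalized counts of *Jak2*, and the *Bptf* cKO libraries had 2291 and 2479. The *Bptf* cKO libraries were lower in both same-numbered comparisons, with log2 differences of -0.24 and -0.13. The estimated log2 fold change of *Jak2* was -0.18 (SE 0.095, 95% interval -0.43 to 0.057, adjusted p = 0.438 by limma). The *Bptf* cKO mean of 2385 ± 133 (SD, n = 2) was 88.1% of the *Bptf* f/f mean.

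The 3 STAT genes lie within a cluster on chromosome 11, *Stat5b* from 100780731 to 100850724 on the minus strand, *Stat5a* from 100859351 to 100885169 on the plus strand and *Stat3* from 100885098 to 100939540 on the minus strand. *Stat5b* and *Stat5a* are separated by 8626 bp, and the annotated ends of *Stat5a* and *Stat3* overlap by 72 bp. Their estimates differed in sign. *Stat3*, the main transducer of gp130 cytokines, had 4791 and 4217 normalized counts in *Bptf* f/f and 5648 and 5594 in *Bptf* cKO. It was the only one of the 10 genes with both *Bptf* cKO libraries above both *Bptf* f/f libraries. Mean normalized counts were 4504 ± 406 and 5621 ± 37.8 (SD, n = 2 each), and the log2 fold change was 0.32 (SE 0.10, 95% interval 0.064 to 0.58, adjusted p = 0.241 by limma), with 0.24 and 0.41 between same-numbered libraries. DESeq2 gave *Stat3* an adjusted p of 0.177.

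*Stat5a* and *Stat5b*, near-identical transducers of JAK2-coupled receptors, had estimates of unlike sign and small size. *Stat5a* had 3542 and 3102 normalized counts in *Bptf* f/f and 3399 and 3570 in *Bptf* cKO, values that overlapped, and the log2 fold change came to 0.072 (SE 0.11, 95% interval -0.20 to 0.34, adjusted p = 0.816 by limma). *Stat5b* had 4842 and 4029 normalized counts in *Bptf* f/f and 3813 and 3801 in *Bptf* cKO. Both *Bptf* cKO libraries were below both *Bptf* f/f libraries, but *Bptf* f/f replicate 2 lay close to them. The *Stat5b* log2 fold change was -0.21 (SE 0.12, 95% interval -0.51 to 0.085, adjusted p = 0.462 by limma). Of the 50-base words in the longest protein-coding transcript of *Stat5a*, 15.8% also occur in *Stat5b*, and 11.8% in the reverse comparison, so a part of the reads of these genes could not be assigned to one of them with certainty.

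*Pim1*, a serine/threonine kinase gene induced by STAT5 and STAT3 that promotes survival, had a level per kilobase of exon in the range of the kinases and STATs. It lies on chromosome 17 from 29490753 to 29496112 on the plus strand and overlaps an antisense gene. *Pim1* had 4169 and 2592 normalized counts in *Bptf* f/f and 2847 and 2881 in *Bptf* cKO, so that the *Bptf* cKO libraries lay between those of *Bptf* f/f. The fitted log2 fold change was -0.20 (SE 0.23, 95% interval -0.78 to 0.38, adjusted p = 0.744 by limma). Between same-numbered libraries the sign differed, at -0.55 for replicate 1 and 0.15 for replicate 2, and without *Bptf* f/f replicate 1 the log2 fold change of *Pim1* was 0.14.

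Outside these 10 genes, 83 further genes of the pathway were listed by role, of which 74 were present and 70 were tested. By limma 1 was called higher and 1 lower in *Bptf* cKO, where 0.370% of all tested genes were called in each direction. Both encode cytokine receptors. The median log2 fold change of the 70 genes was 0.027, with -0.33 for ligands, -0.010 for receptors, -0.16 for the other kinases and STATs, 0.057 for the other inhibitors and 0.30 for the other targets.

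**Figure D4:**
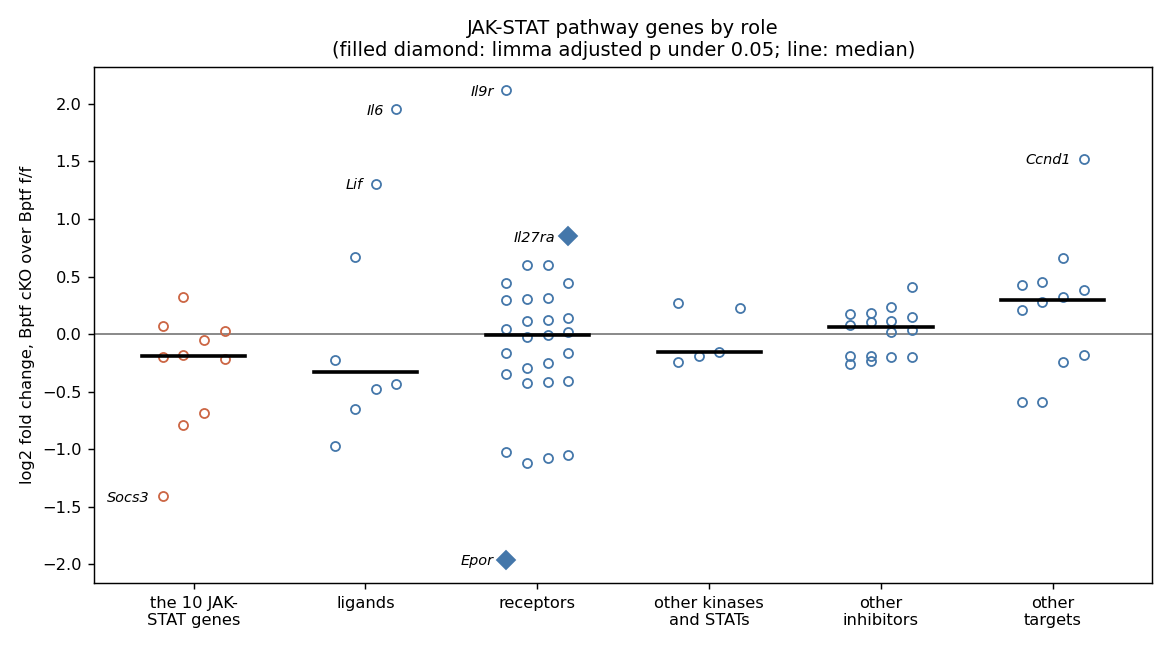
Log2 fold change of *Bptf* cKO over *Bptf* f/f (vertical axis) of the 10 JAK-STAT genes (red) and of 70 other tested genes of the pathway by role (blue), each point a gene and each line a median. The filled diamonds are the 2 genes past a limma adjusted p of 0.05, *Epor* at -1.96 and *Il27ra* at 0.85, while *Il6* at 1.95, *Lif* at 1.31 and *Il9r* at 2.12 did not pass.

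*Epor*, the erythropoietin receptor, which signals through JAK2, was at 326 and 255 normalized counts in *Bptf* f/f and fell to 77.3 and 69.1 in *Bptf* cKO, without overlap. On the log2 scale this was -1.96 (SE 0.24, adjusted p = 0.0443 by limma), and the smallest read number of *Epor* was 49. DESeq2 gave 2.18e-07 for *Epor*, while edgeR gave 0.0513, and leaving out any library raised the limma adjusted p to between 0.0847 and 0.299. Of 4 erythroid markers, 0 passed an adjusted p of 0.05 in limma or edgeR. In DESeq2 2 passed, both lower, where 3.57% of all genes were called lower. At an unadjusted limma p under 0.05 stood 2, both lower, where 8.96% of all tested genes were lower. *Klf1*, an erythroid transcription factor gene, had 367 and 143 normalized counts in *Bptf* f/f and 57.8 and 49.4 in *Bptf* cKO. *Hbb-bt* had 147 and 499 against 47.4 and 110, and the other 2 markers overlapped between genotypes. The erythroid list, of which *Tfrc* gave most, summed to 3847 and 3037 in *Bptf* f/f and to 3960 and 2557 in *Bptf* cKO. The part of erythroid cells in the *Epor* level was not tested.

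*Il27ra*, a subunit of the interleukin-27 receptor that signals through JAK1 with gp130, rose from 1104 and 1150 normalized counts to 2038 and 2030. Both genotypes were tight and did not overlap, and the log2 fold change of *Il27ra* was 0.85 (SE 0.097, adjusted p = 0.0415 by limma), with adjusted p values of 1.61e-07 in DESeq2 and 0.0443 in edgeR. Leaving out any library raised its limma adjusted p to between 0.0710 and 0.315.

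Of the 29 receptor genes tested, 27 did not pass. *Il10ra*, a JAK1-coupled receptor chain, had 663 and 383 normalized counts in *Bptf* f/f and 240 and 237 in *Bptf* cKO (adjusted p = 0.183 by limma, 0.0149 by DESeq2). *Il3ra*, which gives the interleukin-3 receptor its specificity, had 622 and 421 against 762 and 796 (adjusted p = 0.270 by limma). *Ghr*, the growth hormone receptor, was low at 72.1 and 99.8 against 41.6 and 40.9 (adjusted p = 0.236 by limma). *Il6st*, which encodes gp130, had 1294 and 1114 normalized counts in *Bptf* f/f and 944 and 941 in *Bptf* cKO, a log2 fold change of -0.35 (adjusted p = 0.274 by limma). *Il9r*, the interleukin-9 receptor, had the highest estimate but few counts, at 14.0 and 11.1 against 27.9 and 117 (adjusted p = 0.270 by limma), and was named after its values were seen. *Csf2rb*, the common beta chain, overlapped between genotypes at 1603 and 1067 against 1147 and 1055.

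Of 17 ligand genes, 8 were not listed, among them *Epo*, *Csf2* and *Il3*. Of the 8 tested, 0 passed an adjusted p of 0.05 in limma, edgeR or DESeq2. An unadjusted limma p under 0.05 was found for 3, where 15.7% of all tested genes stood at that level. *Il15*, a cytokine for lymphoid cells, had 618 and 597 normalized counts in *Bptf* f/f and 440 and 339 in *Bptf* cKO (log2 fold change -0.65, adjusted p = 0.186 by limma). The estimates of *Il6* and *Lif*, named after their values were seen, rested on as few as 2 and 20 reads in a library. *Osm*, which encodes oncostatin M and is a STAT5 target, had 309 and 150 against 361 and 327 (adjusted p = 0.452 by limma).

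Among the other kinases and STATs, 0 of 5 passed an adjusted p of 0.05 in limma, edgeR or DESeq2. An unadjusted limma p under 0.05 was found for 1 (15.7% of all tested genes stood at that level). *Jak3*, the partner of the common gamma chain, had 6476 and 5656 normalized counts in *Bptf* f/f and 5445 and 5411 in *Bptf* cKO. *Tyk2*, an interferon receptor kinase, had 1839 and 1841 against 2074 and 2228. *Stat6*, which serves interleukin-4, had 3058 and 2714 against 3571 and 3378, a log2 fold change of 0.27 (adjusted p = 0.309 by limma). *Stat2*, a transducer of interferon, had a log2 fold change of -0.25, and *Stat4*, which serves interleukin-12, one of -0.19.

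The SOCS genes outside the feedback group had no common direction. Of 16 other inhibitor genes 0 passed an adjusted p of 0.05 in limma, edgeR or DESeq2. Only *Socs7* had an unadjusted limma p under 0.05, where 15.7% of all tested genes stood at that level. *Socs7* had 1207 and 1141 normalized counts in *Bptf* f/f and 1556 in each *Bptf* cKO library (log2 fold change 0.41, adjusted p = 0.162 by limma). *Socs4*, *Socs5* and *Socs6* had log2 fold changes of 0.033, 0.23 and -0.20, each with overlapping genotypes. *Sh2b3*, which encodes LNK, an adaptor that restrains JAK2, had a log2 difference of 0.082 (SE 0.090, adjusted p = 0.733 by limma).

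**Figure D5:**
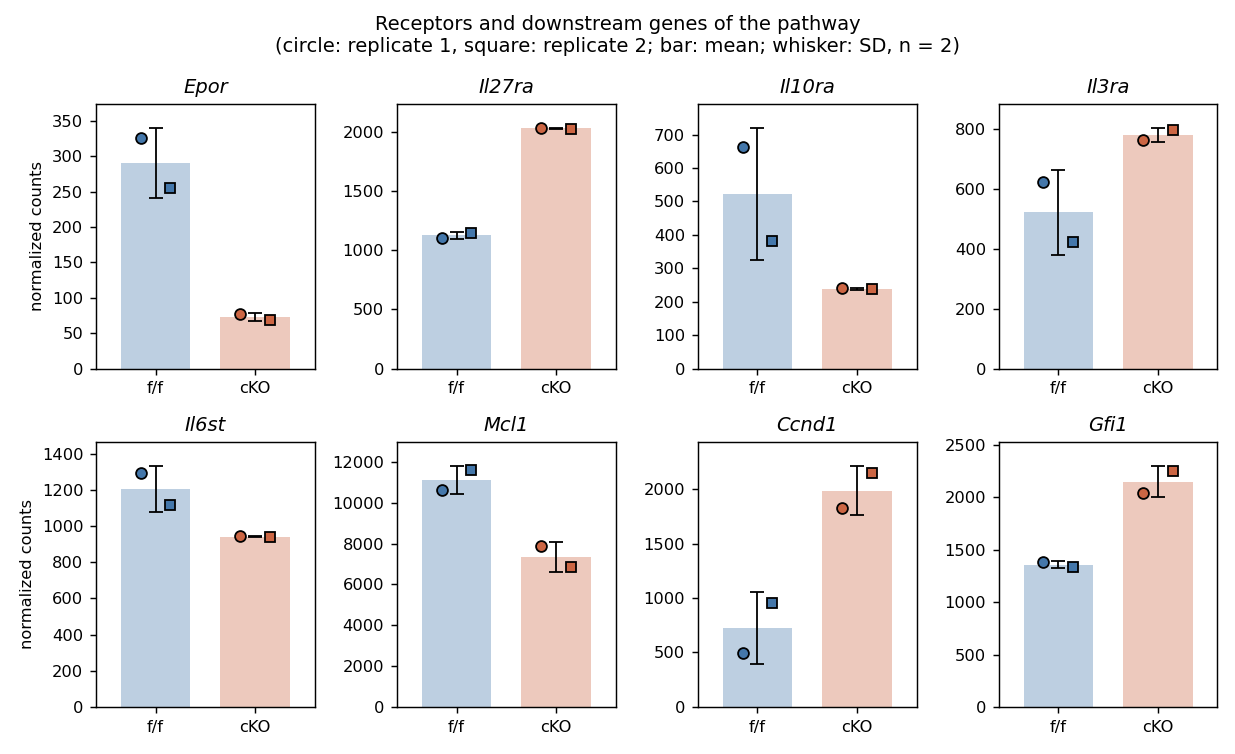
Normalized counts (vertical axes, each from 0) of 5 receptor genes and 3 downstream genes of the pathway in *Bptf* f/f and *Bptf* cKO LSK cells, with a point for each library, bars for means and whiskers for the SD (n = 2). *Epor* is lower and *Il27ra* higher in both *Bptf* cKO libraries, and these 2 passed limma.

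Downstream targets of STAT5 and STAT3 had estimates in both directions, with 0 of 12 other target genes past an adjusted p of 0.05 in limma or edgeR, 5 at an unadjusted limma p under 0.05 (15.7% of all tested genes), and 3 higher and 1 lower in DESeq2 (2.28% and 3.57% of all genes). *Mcl1*, an anti-apoptotic gene, had 10615 and 11595 normalized counts in *Bptf* f/f and 7888 and 6849 in *Bptf* cKO (log2 fold change -0.59, adjusted p = 0.0999 by limma, 0.00132 by DESeq2). *Pim2*, a relative of *Pim1*, had 537 and 432 against 287 and 357 (adjusted p = 0.253 by limma), and *Pim3* had 938 and 722 against 1211 and 1010 (adjusted p = 0.335 by limma). *Ccnd1*, which encodes the G1 cyclin D1, had 493 and 956 normalized counts in *Bptf* f/f and 1825 and 2145 in *Bptf* cKO (log2 fold change 1.53, adjusted p = 0.120 by limma, 2.24e-04 by DESeq2). *Gfi1*, a repressor that curbs stem cell proliferation, had 1380 and 1333 against 2047 and 2256 (log2 fold change 0.66, adjusted p = 0.0726 by limma, 3.05e-04 by DESeq2). *Ccnd2*, named after its values were seen, had 7293 and 7262 against 10368 and 9575. The log2 fold change of *Ccnd2* was 0.45 (adjusted p = 0.115 by limma, 0.00428 by DESeq2).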

How the data were processed

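RNA-seq of sorted LSK cells comprised 2 *Bptf* f/f and 2 *Bptf* cKO libraries, grouped by the sample labels. The authors deposited a signal per library, gene counts divided by a size factor, for 18598 genes with at least 11 reads over the libraries, beside their own mean, fold changes, standard errors, test statistics and p-values, which were not used. HISAT2, featureCounts, DESeq2 and the GRCm38/mm10 build are named in the submitters' processing notes, and versions, annotation and strand setting are not given in the sources used here. All values (100%, tolerance 0.01) were whole multiples of the smallest value of their library, which gave whole reads. Library totals were 24875746 and 14091054 reads in *Bptf* f/f and 30134742 and 14104526 in *Bptf* cKO, so counting error matters for the genes with few reads, and the number of libraries limits the rest.

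Genes with a mean of at least 10, 14858 of them, were compared as log2(value + 1), a scale that understates the change of low genes, with limma 3.58.1 (R 4.3.3, mean-variance trend, genotype only, two-sided, Benjamini-Hochberg). A call is an adjusted p under 0.05, and intervals are limma's 95% intervals. edgeR 4.0.16 and DESeq2 1.42.0 were run on the recovered reads. Alternatives were other pseudocounts, filters and scalings, limma without the trend, a replicate block, and each library left out. The fits were tested on simulated data. Gene positions and exon lengths came from GENCODE vM21, promoter sequences from RefSeq on GRCm38.p6, and Python 3.11.15 summarised the fits. Named were the 10 genes, fixed pathway genes, pathway genes called, and those with a mean of at least 50 whose groups did not overlap at a fold over 1.5. The members and lists were chosen with earlier results of these data known. Some pathway and marker genes are not reported here and were left out of the list counts. Proteins, and the promoter of *Socs2*, are not shown here.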

Additional observations from a re-analysis of the deposited data

How the results depend on the processing

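Across 15 alternatives, 6 of the 10 JAK-STAT genes kept the sign of their log2 fold change, and 8 of 150 values turned. *Jak1* was -0.056 with quantile normalization and -0.013 without *Bptf* cKO replicate 1. *Stat5a* was -0.024 without *Bptf* f/f replicate 2. *Socs1* was 0.0033 with recentred libraries, 0.11 with quantile normalization, 0.26 without *Bptf* f/f replicate 1 and 0.0019 without *Bptf* cKO replicate 2. *Pim1* was 0.14 without *Bptf* f/f replicate 1. Of the 24 other pathway genes named by the rule, 3 turned: *Csf2rb* (0.044 without *Bptf* f/f replicate 1), *Stat4* (0.033 without *Bptf* f/f replicate 2) and *Socs4* (-0.13 without *Bptf* f/f replicate 2 and -0.082 without *Bptf* cKO replicate 1). None of these genes was called under the alternative that turned it. Over the fits without 1 library, *Jak1* ran from -0.013 to 0.061, *Stat5a* from -0.024 to 0.17, *Socs1* from -0.36 to 0.26, *Pim1* from -0.54 to 0.14, *Csf2rb* from -0.54 to 0.044, *Stat4* from -0.42 to 0.033 and *Socs4* from -0.13 to 0.19. Over all alternatives *Cish* ran from -0.91 to -0.67 and *Socs3* from -1.78 to -1.04.

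The replicate numbers are in the labels, but no label ties them to a shared batch. As 2 pairs are too few to establish a pairing from the data, the block is given only as an alternative. Same-numbered libraries did share features, among them the pluripotency transcripts of both replicate 2 libraries. The difference between replicates 1 and 2 in *Bptf* f/f correlated with that in *Bptf* cKO at 0.452 across tested genes. With the replicate block, limma called 1 of the 10 higher (*Stat3*, adjusted p = 0.0294) and 2 lower (*Socs3*, 0.00344, and *Cish*, 0.00354), 10 pathway genes higher and 10 lower, and 896 genes higher and 1242 lower over all, 6.03% and 8.36% of those tested. edgeR with the block called 1 of the 10 higher and 2 lower, 11 and 10 pathway genes, and 891 and 1229 genes.

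DESeq2 called 2 of the 10 lower, 4 pathway genes higher and 3 lower, and 319 and 500 genes over all. limma without the trend called 2 genes higher and 0 lower over all and 0 pathway genes in either direction. edgeR without a block called 0 pathway genes lower. Leaving out each library gave 1 to 76 genes higher and 0 to 41 lower over all, 0 to 1 pathway genes higher and 0 lower, and 0 of the 10 genes, in a fit where the lone library of a group is assumed to vary like the other group. The causes of these moves were not tested. Leaving out replicate 2 of both genotypes, which hold the pluripotency transcripts, leaves 1 library per group and no test, and the replicate 1 differences are given with the results. Recentring moved the median of all genes by 0.052 on the log2 scale. Among the 10 genes *Socs1* had the fewest reads, 64 in its shallowest library, and *Epor*, *Ghr*, *Lif*, *Il9r* and *Il6* had as few as 49, 29, 20, 8 and 2.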

Other observations

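The ratio of *Stat5b* to *Stat5a* within a library does not depend on the scaling of the library. It was 1.37 and 1.30 in *Bptf* f/f and 1.12 and 1.06 in *Bptf* cKO on normalized counts, so the genotypes did not overlap. The mean ratio was 1.33 ± 0.048 (SD, n = 2) against 1.09 ± 0.040 (SD, n = 2), and the exact two-sided permutation p was 0.333, the smallest that 2 against 2 libraries can give. Per kilobase of exon the ratio was 1.76 and 1.67 in *Bptf* f/f and 1.44 and 1.37 in *Bptf* cKO. This ratio was looked at after the levels of both genes had been seen, and reads shared between the genes touch it. The ratio of *Jak1* to *Jak2* per kilobase of exon did not overlap between genotypes either. It was 1.85 and 1.87 in *Bptf* f/f and 2.29 and 2.01 in *Bptf* cKO.

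*Il7r*, the receptor of interleukin-7 in lymphoid progenitors, and *Csf3r*, the granulocyte colony-stimulating factor receptor, were higher in replicate 1 of both genotypes and were chosen after their values were seen. *Il7r* had 698 normalized counts in replicate 1 and 152.5 in replicate 2 of *Bptf* f/f, and 259 and 86.1 in *Bptf* cKO. *Csf3r* had 5086 and 2572 in *Bptf* f/f and 3180 and 2296 in *Bptf* cKO. Both genes were lower in *Bptf* cKO between same-numbered libraries, by log2 differences of -1.43 and -0.82 for *Il7r* and -0.68 and -0.16 for *Csf3r*. The limma adjusted p was 0.595 for *Il7r* and 0.628 for *Csf3r* without the replicate block, and 0.00347 and 0.0306 with it. With the block, 14.4% of all tested genes were called in limma. The B cell markers, 4 genes, summed to 4692 and 1016 normalized counts in *Bptf* f/f and 2703 and 1489 in *Bptf* cKO. The 7 granulocyte-monocyte markers summed to 58356 and 11759 in *Bptf* f/f and 53442 and 46327 in *Bptf* cKO. The part of either list in these levels was not tested.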
